A study of Mus musculus with 8 samples.

Results

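The genes described here handle iodide or carry, activate, bind, sense or answer thyroid hormone. They are 9 of the 17171 genes in the authors' deposited comparison, chosen by name: Slc5a5, Iyd, Dio2, Slco1c1, Crym, Thra, Thrb, Hr and Klf9. All 9 had a row. They were picked with that comparison already known, so their own log2 fold changes and adjusted p-values are given as a description and support nothing further. RNA of the hippocampus was measured by stranded sequencing of polyadenylated transcripts in C57BL/6 mice aged 2 months. The mutant mice are labelled SUMO2-cKO and carry the genotype Sumo2 f/f;Emx1-Cre (n = 4), and the controls carry Sumo2 f/f without the recombinase (n = 4), so loxP-flanked Sumo2 alleles are common to both groups. Emx1-Cre drives recombination in dorsal forebrain progenitors, whose descendants are excitatory neurons, astrocytes and part of the oligodendrocytes, and leaves endothelial cells, microglia and most interneurons outside the lineage. The labels do not say whether each sample came from a separate animal, so the p-values measure the spread between these samples.

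Sumo2 encodes a small protein that is attached to other proteins to change their partners and stability, and both thyroid hormone receptors have been described as substrates of such conjugation. Thyroid hormone enters the brain through membrane transporters such as the Slco1c1 product, and the Dio2 enzyme of astrocytes turns thyroxine into the active hormone triiodothyronine. Inside neurons the hormone meets the nuclear receptors encoded by Thra and Thrb, which bind DNA with retinoid X receptors, repress when empty and activate when occupied. Crym encodes a cytosolic protein that binds triiodothyronine, while Klf9 and Hr are classical genes that the occupied receptors switch on in the developing brain. Slc5a5 encodes the sodium iodide symporter and Iyd the iodotyrosine deiodinase that recovers iodide, and both are best known from the thyroid gland.

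Among these genes, Slc5a5 and Hr were higher in the group labelled SUMO2-cKO at an adjusted p under 0.05 in the authors' deposited table, and none was lower at that threshold. The other 7 did not pass. Across all genes of the authors' deposited table, 1.5% were called in either direction, 0.967% as higher and 0.530% as lower. The median log2 fold change of the 9 genes was -0.03, beside -0.00022 over all genes tested, with 4 positive and 5 negative values. Since the contrast itself was used to pick the genes, nothing is read from these counts.

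The targeted gene does not check the genotype labels. Sumo2 had a log2 fold change of 0.42 in the authors' deposited table (SE 0.252, 95% interval -0.07 to 0.92, adjusted p = 0.761), where a loss would give a negative value. The extent of the deleted segment of Sumo2 is not stated in the sources. Log2 fold changes and adjusted p-values are those of the authors' deposited table throughout, and every direction below is that of the group labelled SUMO2-cKO over the group labelled Control. Standard errors (SE) and 95% intervals were derived from the Wald statistic in the authors' deposited table. Values per sample were not analysed here, because the 8 value columns of the table carry names that match no sample label, and the overlap of the groups is thus not described. In whole tissue, fewer cells of a type and less RNA per cell cannot be told apart.

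The start regions of the 2 iodide genes are shown because these genes had the largest values of the 9, in opposite directions. Both are RefSeq sequences of build GRCm38.p6 from 250 bases before to 50 bases after the start of transcription, written 5′ to 3′ on the strand of the gene. Capitals mark a GC box (GGGCGG) in Slc5a5 and a TATA box (TATAAA) in Iyd.
Slc5a5, chr8:70892708-70893007, minus strand: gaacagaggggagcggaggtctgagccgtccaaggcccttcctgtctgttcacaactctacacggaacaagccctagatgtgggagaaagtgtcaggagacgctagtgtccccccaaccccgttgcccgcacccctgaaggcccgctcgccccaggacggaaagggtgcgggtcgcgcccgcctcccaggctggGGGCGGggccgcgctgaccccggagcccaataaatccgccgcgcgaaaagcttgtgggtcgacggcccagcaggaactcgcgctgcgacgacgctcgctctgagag
Iyd, chr10:3540024-3540323, plus strand: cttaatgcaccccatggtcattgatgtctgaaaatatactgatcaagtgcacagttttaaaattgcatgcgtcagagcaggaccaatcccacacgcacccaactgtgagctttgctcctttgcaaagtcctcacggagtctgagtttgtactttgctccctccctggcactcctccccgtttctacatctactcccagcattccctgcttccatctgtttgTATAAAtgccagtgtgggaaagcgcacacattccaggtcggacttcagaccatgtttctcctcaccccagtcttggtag

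The 2 windows differ in composition. The Slc5a5 window is 67.0% G and C with 29 CpG dinucleotides, while the Iyd window is 49.0% G and C with 6. Over all 32851 RefSeq start windows the median was 52.7% G and C with 7 CpG dinucleotides. The GC box of Slc5a5 lies 56 bases before the RefSeq start, and the TATA box of Iyd begins 29 bases before its own RefSeq start. The gene coordinates of Iyd printed below begin before that RefSeq start, so this TATA box lies inside them. For Slc5a5 the 2 sources give the same start. A GC box occurred in 35.7% of all windows and a TATA box in 13.6%.

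Motifs were looked for on both strands in the 7 start windows that matched 6 of the 9 genes by symbol, Thrb having 2 of them. Distances are from the RefSeq starts, which for Dio2, Slco1c1 and both Thrb windows are not the starts of the gene coordinates printed below. The 6-base half-site to which thyroid hormone receptors bind, AGGTCA, was present in the upstream Thrb window, 184 bases before the start, and in 16.3% of all windows. No match to these 6 letters was seen in the windows of Slc5a5, Iyd, Dio2, Slco1c1 and Klf9. The same 6 letters repeated in direct orientation with 4 bases between, the classical thyroid hormone response element, was in none of the 7 windows and in 0.0152% of all. The palindrome TGACGTCA, a cyclic AMP response element, lay 95 bases before the start of Dio2 and in 1.79% of all windows. An E-box (CACGTG) was present in the windows of Slco1c1 and of the downstream Thrb start, and in 7.15% of all. TATA box letters also lay 30 bases before the start of Dio2, 167 before the downstream Thrb start and just after the start of Slco1c1. GC boxes also lay in the upstream Thrb window, at 125, 76 and 72 bases before the start. Slco1c1, Dio2 (44.7%) and downstream Thrb lay below the median G and C content of 52.7%. Upstream Thrb (72.7%) and Klf9 (63.3%) lay above it. No link of motif or composition to fold change was tested. A match describes letters in a window and is no evidence of binding.

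Slc5a5 (ENSMUSG00000000792, chromosome 8, 70882889 to 70892757, minus strand, GRCm38) had the largest value of the 9 genes, a log2 fold change of 0.55 in the authors' deposited table (SE 0.0751, 95% interval 0.40 to 0.70, adjusted p = 2.83e-10). This is 1.47-fold higher in the group labelled SUMO2-cKO than in the group labelled Control, with an interval of 1.32 to 1.62-fold, so a required fold of 1.5 leaves it out. By p-value it ranked 12 of the 17171 genes in the authors' deposited table. In fold alone it was less extreme, since 4.83% of all genes had a larger absolute log2 fold change. Of the 6532 genes with an SE no larger than its own, 3 had a larger absolute value in the authors' deposited table. Since Slc5a5 was picked with the comparison known, its rank and these counts are a description and give no support. No 50-base window of its single annotated transcript occurs in a transcript of another gene.

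Iyd (ENSMUSG00000019762, chromosome 10, 3540240 to 3554877, plus strand) had the opposite sign, with a log2 fold change of -0.45 in the authors' deposited table (SE 0.136, 95% interval -0.71 to -0.18, adjusted p = 0.0600). The estimate corresponds to 0.733 of the Control level, with an interval of 0.610 to 0.881. Of the 7 genes that were not called, Iyd was the nearest to the threshold, and it is called when genes with an SE above 0.25 are left out of the adjustment (adjusted p = 0.0494). Hr, with an adjusted p of 0.00874 in the authors' deposited table, was the nearest on the other side.

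**Figure D1:**
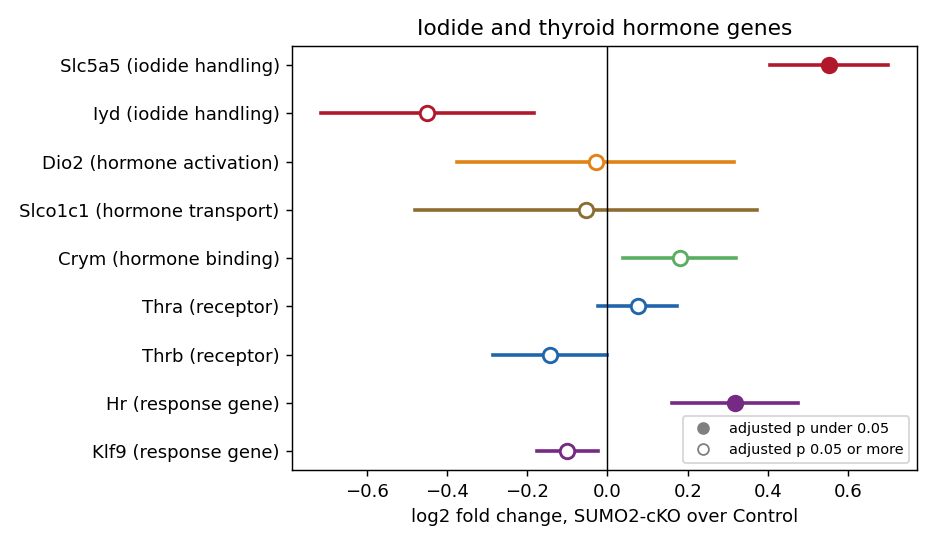
Log2 fold change of each of the 9 genes in the group labelled SUMO2-cKO over the group labelled Control (x axis, points) with its 95% interval (lines), one gene per row with its role. Filled points, Slc5a5 at 0.55 and Hr at 0.32, have an adjusted p under 0.05, and the intervals of Dio2, Slco1c1, Thra and Thrb include 0.

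The other genes of iodide handling and hormone synthesis were mostly measured with wide errors. Of 15 listed genes 10 had a row, and without Slc5a5 and Iyd none of the 8 others was called in the authors' deposited table (DESeq2 per the submitters' notes), with 1 positive and 1 negative value at an unadjusted p under 0.05, a level reached by 8.37% of all genes. The negative one was Duox2, an oxidase that supplies hydrogen peroxide for hormone synthesis, at -2.00 (SE 0.609, adjusted p = 0.0628) by the authors' deposited table. The positive one was Slc26a4, the anion exchanger pendrin that passes iodide out of thyroid cells, at 0.23 (SE 0.0863, adjusted p = 0.231) by the authors' deposited table. The median of the 8 was 0.01 on the log2 scale, and the median SE of the whole list was 0.490, against 0.0940 over all genes.

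No defining gene of thyroid follicle cells was called. Thyroglobulin (Tg) and Foxe1 had no row in the table, and none of the other 4 of 6 markers was called or reached an unadjusted p under 0.05 in the authors' deposited table. Of all genes, 1.5% were called and 8.37% reached that unadjusted level. Among the 4 markers, Pax8 stood at 0.93 (SE 1.03), Nkx2-1 at 0.05 (SE 0.338) and Tshr, the thyrotropin receptor, at -0.03 (SE 0.423) by the authors' deposited table. Their levels were not analysed here.

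Slc5a5 belongs to a family of sodium-coupled solute carriers, of which 13 were listed and 8 had a row. It was the 1 called, beside 1.5% of all genes, and it was picked with the comparison known. The 7 others, among them the choline transporter Slc5a7 and the inositol transporter Slc5a3, had log2 fold changes from -0.71 to 0.13 (median -0.01) in the authors' deposited table. None of these 7 reached an unadjusted p under 0.05, a level reached by 8.37% of all genes. The lowest was Slc5a8, a carrier of monocarboxylates, at -0.71 (SE 0.632, adjusted p = 0.987), followed by Slc5a11, an inositol carrier, at -0.41 (SE 0.568) by the authors' deposited table. Slc5a3 was measured more precisely, at 0.0038 (SE 0.118, 95% interval -0.23 to 0.24) by the authors' deposited table, an interval that does not reach the 0.55 of Slc5a5.

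Dio2 (ENSMUSG00000007682, chromosome 12, 90724552 to 90738438, minus strand), the activating deiodinase, had a log2 fold change of -0.03 in the authors' deposited table (SE 0.176, 95% interval -0.37 to 0.32, adjusted p = 0.9996). The interval allows levels from 0.772 to 1.25 of the Control level. Dio3, which inactivates the hormone, stood at 0.45 (SE 0.231, 95% interval -0.00356 to 0.900, adjusted p = 0.604) by the authors' deposited table and was not called. Dio1 had no row. Dio2 shares 100 exon bases with Gm26512, a noncoding RNA transcribed on the opposite strand, which stood at -0.01 (SE 0.219) by the authors' deposited table.

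Slco1c1 (ENSMUSG00000030235, chromosome 6, 141524368 to 141570177, plus strand), the thyroxine carrier of brain capillaries and choroid plexus, had a log2 fold change of -0.05 in the authors' deposited table (SE 0.218, 95% interval -0.48 to 0.37, adjusted p = 0.9996). It was the least precisely measured of the 9, with an SE above that of 74.2% of all genes. The 8 endothelial markers, which mark the cells where Slco1c1 is best known, had a median of 0.15 with 7 positive and none called, and the 7 choroid plexus markers a median of -0.21 with 0 positive and none called in the authors' deposited table. At an unadjusted p under 0.05 these lists had 2 and 0 genes, a level reached by 8.37% of all genes. The nearest endothelial markers to the threshold were Cldn5 at 0.34 (SE 0.134, adjusted p = 0.285) and Cdh5 at 0.28 (SE 0.123, adjusted p = 0.407) by the authors' deposited table. Their part in the value of Slco1c1 was not tested.

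Crym (ENSMUSG00000030905, chromosome 7, 120186380 to 120202111, minus strand), the cytosolic binder of triiodothyronine, had a log2 fold change of 0.18 in the authors' deposited table (SE 0.0722, 95% interval 0.04 to 0.32, adjusted p = 0.302). Its unadjusted interval excludes 0, and it did not pass over all genes. Together with Slco1c1 it belongs to a list of 13 transporters and binders, of which 11 had a row and 0 were called. At an unadjusted p under 0.05, reached by 8.37% of all genes, stood 2 of the 11, both positive. These were Crym and Slc7a8, an amino acid carrier that also takes up thyroid hormone, at 0.11 (SE 0.0432, adjusted p = 0.252) by the authors' deposited table. Slco1a4 of brain capillaries stood at 0.21 (SE 0.118, adjusted p = 0.703), and Ttr, the thyroxine binder of the choroid plexus, at -0.26 (SE 0.542) by the authors' deposited table. The list had a median of 0.05. Among the 10 measured genes of the Slco family none was called, and Slco4c1, at -0.52 (SE 0.233, adjusted p = 0.432) by the authors' deposited table, was the 1 with an unadjusted p under 0.05. Slco3a1 stood at -0.09 (SE 0.0663, adjusted p = 0.928) by the authors' deposited table.

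The receptors had values of opposite sign that did not pass. Thra (ENSMUSG00000058756, chromosome 11, 98740638 to 98769006, plus strand), the main receptor of the brain, had a log2 fold change of 0.07 in the authors' deposited table (SE 0.0499, 95% interval -0.02 to 0.17, adjusted p = 0.853). Thrb (ENSMUSG00000021779, chromosome 14, 17660261 to 18038090, plus strand) had one of -0.14 in the authors' deposited table (SE 0.0730, 95% interval -0.29 to 0.00005, adjusted p = 0.597). In folds, the intervals allow 0.984 to 1.13 of the Control level for Thra and 0.820 to 1.0 for Thrb, so a change of Thra as large as that of Slc5a5 lies outside its interval.

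The 2 receptors are similar proteins. Other transcripts, such as Thra-202, were left out of a search that used the longest coding sequence of each gene. The longest identical stretch found is shown because it bears on whether reads can be assigned to the right gene. It spans 26 bases, positions 757 to 782 of the 1479-base coding sequence of transcript Thra-201 and 961 to 986 of the 1428-base one of Thrb-202 (GENCODE M21, GRCm38, plus strand in both), and capitals mark the identical bases.
Thra and Thrb: GGCTGCTGCATGGAGATCATGTCCCT
Over all annotated transcripts, no 50-base window is common to the 2 receptor genes. Of the 7385 windows of Thrb, 9 (0.122%) occur in other genes, 250 in number, and of the 4646 windows of Thra none does.

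Thra overlaps Nr1d1, which encodes a repressor of the circadian clock and runs on the opposite strand with its 3′ end inside Thra. Of the 9 annotated Thra transcripts, 2 of the 4 coding ones share exon bases with Nr1d1. These are Thra-201 with 263 bases and Thra-203 with 130, while Thra-202, which ends earlier, shares none. The longer form is known to encode a variant that does not bind the hormone. The shared bases are 5.70% of the exon bases of Thra and 8.55% of those of Nr1d1. Nr1d1 was called higher, at 0.18 (SE 0.0494, 95% interval 0.09 to 0.28, adjusted p = 0.0194) by the authors' deposited table. The libraries were stranded, but no source states whether counting used the strand, and without it reads in the shared bases cannot be told apart. The transcript forms of Thra are not separated in a table by gene.

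**Figure D2:**
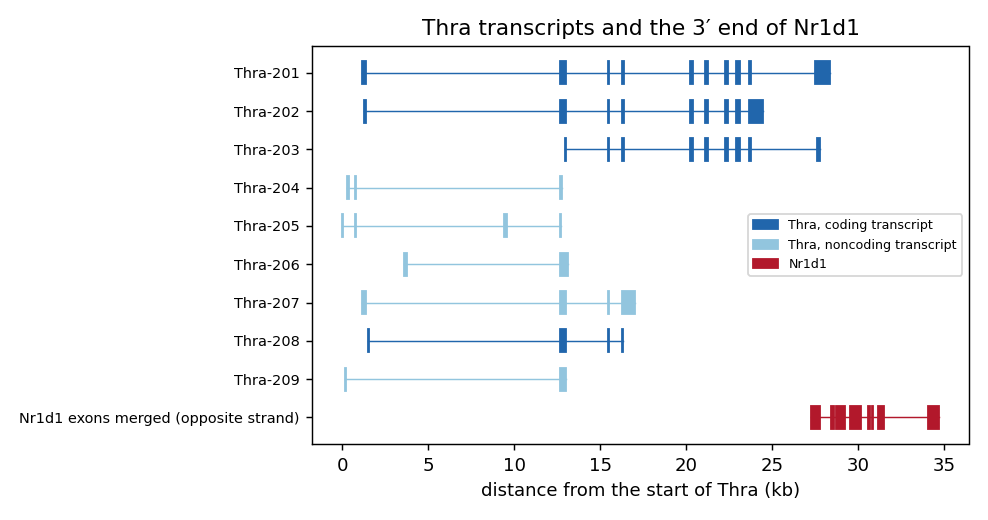
Exons (boxes) of the 9 annotated Thra transcripts and the merged exons of Nr1d1 (rows) by distance from the start of Thra in kb (x axis), from GENCODE M21. The last exons of Thra-201 and Thra-203 lie over the 3′ end of Nr1d1, which is on the opposite strand, and Thra-202 ends before it.

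No partner of the receptors was called. Rxra, a retinoid X receptor, stood at 0.21 (SE 0.0673, adjusted p = 0.104) by the authors' deposited table, and none of the 5 receptors and partners was called. Rxra was the 1 at an unadjusted p under 0.05, a level reached by 8.37% of all genes. The 12 corepressors and coactivators, among them Ncor1, Hdac3 and Ncoa1, ranged from -0.08 to 0.05 in log2 fold change with a median SE of 0.0501. None was called or reached an unadjusted p under 0.05 in the authors' deposited table. The nearest was Tbl1x, a subunit of the corepressor complex, at -0.08 (SE 0.0582, adjusted p = 0.909), before Ncoa2, a coactivator, at -0.03 (SE 0.0442) and Gps2, another corepressor subunit, at 0.05 (SE 0.0855) by the authors' deposited table.

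The 2 classical response genes also differed in sign. Hr (ENSMUSG00000022096, chromosome 14, 70552212 to 70573548, plus strand), a corepressor that itself binds thyroid hormone receptors, had a log2 fold change of 0.32 in the authors' deposited table (SE 0.0802, 95% interval 0.16 to 0.47, adjusted p = 0.00874). It was 1.25-fold higher in the group labelled SUMO2-cKO than in the group labelled Control (interval 1.12 to 1.39), and it is not called with Bonferroni adjustment. Klf9 (ENSMUSG00000033863, chromosome 19, 23141226 to 23168134, plus strand), a zinc finger transcription factor, had one of -0.10 in the authors' deposited table (SE 0.0391, 95% interval -0.18 to -0.02, adjusted p = 0.269). Klf9 was the most precisely measured of the 9, with 2.98% of all genes at an SE no larger than its own, and its interval runs from 0.885 to 0.984 of the Control level. Klf9 also answers glucocorticoids, so its level is not a readout of thyroid hormone alone.

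**Figure D3:**
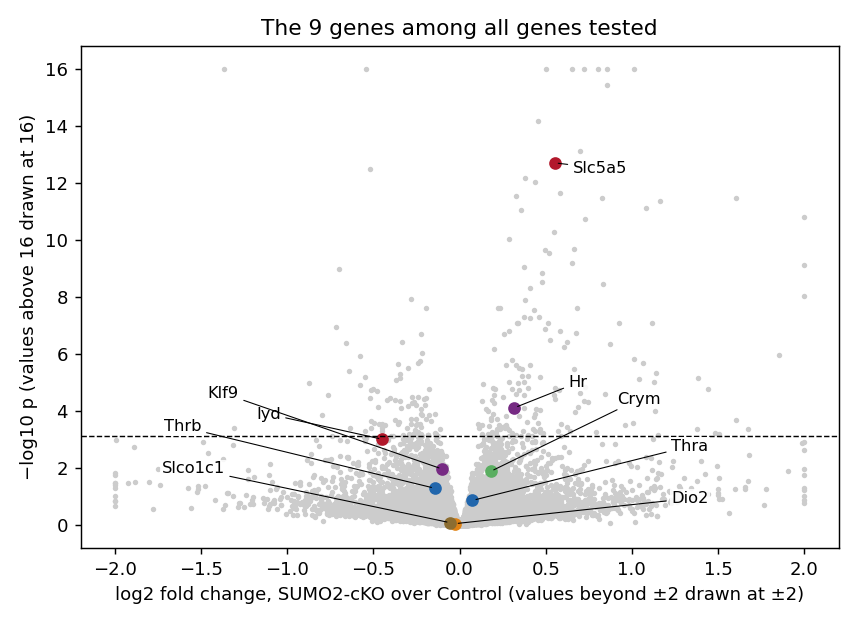
Log2 fold change (x axis, drawn within ±2) against −log10 of the unadjusted p-value (y axis, drawn up to 16) for all 17171 genes (grey) and the 9 genes (coloured by role), group labelled SUMO2-cKO over group labelled Control. Slc5a5 and Hr lie above the dashed line, the largest p-value that passes an adjusted p of 0.05, and Iyd just under it.

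Other genes known to answer thyroid hormone in the brain did not share 1 direction. Of the 18 measured besides Hr and Klf9, 0 were called higher and 1 lower in the authors' deposited table, beside 0.967% and 0.530% of all genes. The called gene was Rasd2, a small GTPase of the striatum also named Rhes, at -0.30 (SE 0.0645, adjusted p = 6.42e-04) by the authors' deposited table. At an unadjusted p under 0.05 stood 2 positive and 6 negative values, a level reached by 8.37% of all genes in either direction. Aldh1a1, a retinaldehyde dehydrogenase, at 0.42 (SE 0.130, adjusted p = 0.0672) and Reln, the secreted guidance protein reelin, at 0.15 (SE 0.0549, adjusted p = 0.185) were the positive ones in the authors' deposited table. Negative were Camk4, a calcium-dependent kinase, at -0.26 (SE 0.0835, adjusted p = 0.0841), Thrsp at -0.23 (SE 0.0809, adjusted p = 0.161) by the authors' deposited table, and 3 myelin genes. Nrgn, a postsynaptic calmodulin binder often used as a readout of the hormone, stood at 0.05 (SE 0.0522) by the authors' deposited table. Of the 18 genes, 6 had a positive and 12 a negative value, with a median of -0.07.

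The myelin genes of that list included Mbp at -0.42 (SE 0.167) and Mag at -0.39 (SE 0.181) by the authors' deposited table, and none of the 3 was called. They are also among the 8 oligodendrocyte markers, all 8 of which were negative and under an unadjusted p of 0.05, with a median of -0.43 and values from -0.52 to -0.39. That level was reached by 8.37% of all genes, and 0.530% of all genes were called lower. Of these 8, Mog, a myelin surface protein, was called at -0.45 (SE 0.129, adjusted p = 0.0385) by the authors' deposited table. Without the 3 myelin genes the response list kept 6 positive and 9 negative values with a median of -0.07. The part of oligodendrocytes in the values of the response genes was not tested.

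Markers of other cell types had no called member. For the counts that follow, 8.37% of all genes reached an unadjusted p under 0.05. The 8 astrocyte markers, cells in which Dio2 is best known, had a median of 0.07 with 6 positive and none called, and 2 at an unadjusted p under 0.05, Gfap at 0.14 (SE 0.0470) and Aqp4 at -0.17 (SE 0.0640) by the authors' deposited table. The 6 excitatory neuron markers all had a row, but their levels, which would check the labelled tissue, were not analysed here. They had a median of 0.04, none called and 2 at an unadjusted p under 0.05. Tanycyte and ependyma markers, of which 5 of 6 had a row, had a median of -0.26 with none called and 1, Foxj1, at an unadjusted p under 0.05. Interneuron markers (6 genes, median -0.08, 1 at an unadjusted p under 0.05) and microglia markers (5 genes, median -0.04, 0 such genes) had none called either in the authors' deposited table. The 14 measured Krüppel-like factors, relatives of Klf9, had a median of -0.02 with none called and 3 at an unadjusted p under 0.05, all negative. These were Klf7 at -0.14 (SE 0.0482), Klf9, and Klf13 at -0.08 (SE 0.0325) by the authors' deposited table.

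**Figure D4:**
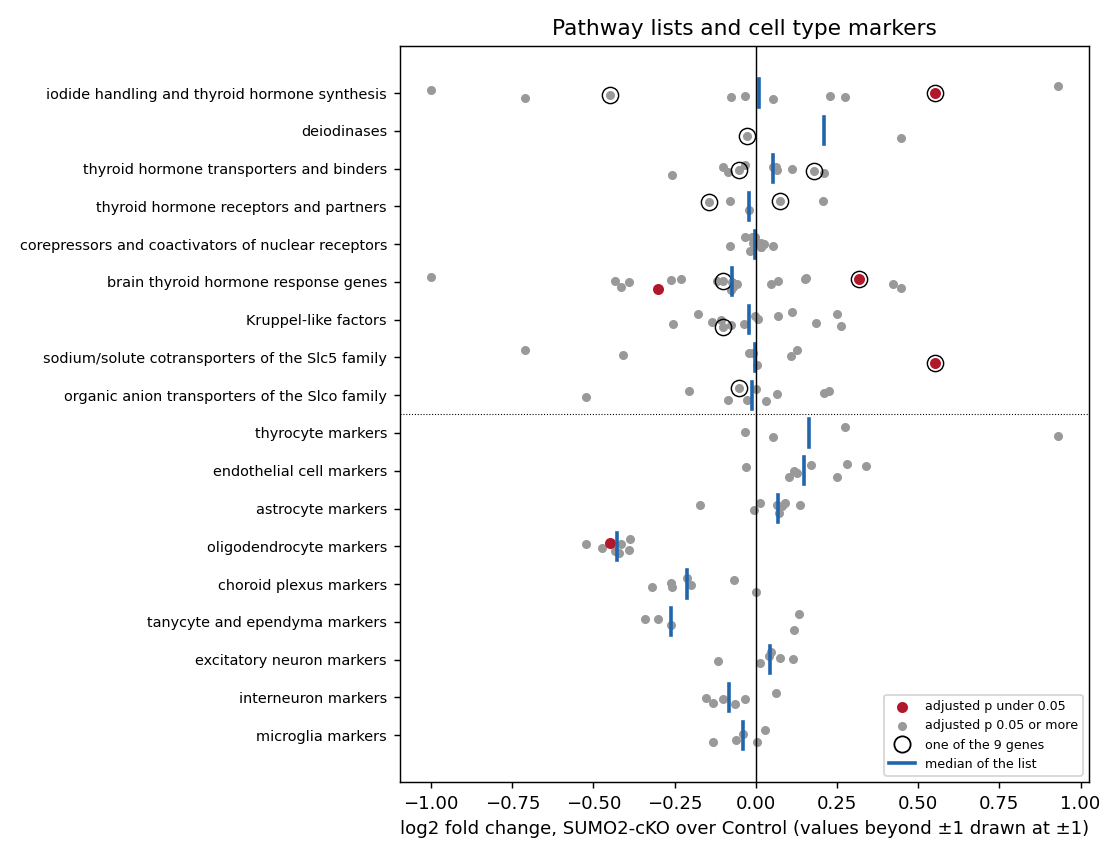
Log2 fold change (x axis, drawn within ±1) of every measured gene of 9 pathway lists and 9 lists of cell type markers (rows, split by the dotted line), group labelled SUMO2-cKO over group labelled Control, with the median of each list (blue bar). Red points have an adjusted p under 0.05 and circles mark the 9 genes. The oligodendrocyte markers all lie between -0.52 and -0.39, and the corepressors and coactivators between -0.08 and 0.05.

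Neighbours on the chromosome were compared with each gene. Within 100 kb of the 9 genes lay 36 other genes with a row, of which 3 were called in the authors' deposited table, all higher, beside 1.5% of all genes. Near Slc5a5, 1 of 8 was called. This was Mast3, a serine/threonine kinase gene 77835 bases away, at 0.22 (SE 0.0401, adjusted p = 9.37e-06) by the authors' deposited table. Ccdc124, 8954 bases away, stood at 0.04 (SE 0.0549) by the authors' deposited table. Arrdc2 had a negative value of -0.44 (SE 0.182, adjusted p = 0.341) by the authors' deposited table. The values around Slc5a5 ran from -0.67 to 0.22 in the authors' deposited table.

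Near Hr, 1 of 11 neighbours was called, beside 1.5% of all genes. This was Bmp1, a secreted protease that trims procollagen, at 0.29 (SE 0.0845, adjusted p = 0.0497) by the authors' deposited table. It lies 31978 bases from Hr. Reep4, the nearest gene at 3279 bases, stood at -0.17 (SE 0.240) and Nudt18, at 4089 bases, at -0.03 (SE 0.0680) by the authors' deposited table. Near Thra the called neighbour was Nr1d1, described above, and the 7 others ranged from -0.05 to 0.26. Iyd and Dio2 had 1 neighbour each with a row and Thrb none. Tmem159, near Crym, stood at 0.39 (SE 0.119, adjusted p = 0.0602) by the authors' deposited table and was not called.

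**Figure D5:**
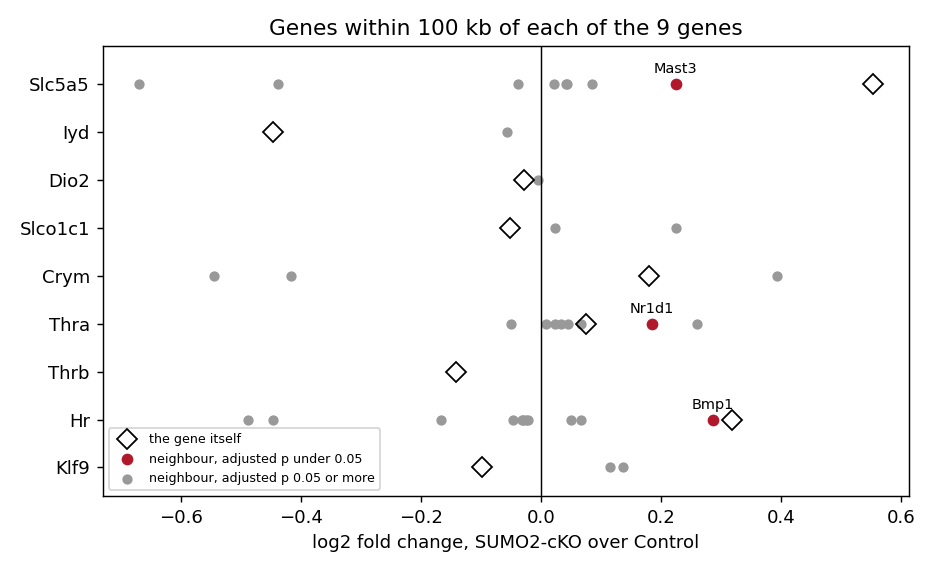
Log2 fold change (x axis) of each of the 9 genes (open diamonds) and of the genes with a row within 100 kb of it (points), one row per gene, group labelled SUMO2-cKO over group labelled Control. Red points, Mast3, Nr1d1 and Bmp1, have an adjusted p under 0.05, and Slc5a5 at 0.55 lies above all 8 of its neighbours.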

How the data were processed

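Per the labels' protocols, RNA of snap frozen hippocampus was extracted with Trizol, treated with DNase and made into stranded mRNA libraries. Tools listed in the submitters' processing notes are STAR, HTSeq, DESeq2, cutadapt and Trim Galore. Their versions, the genome build, the annotation, the strand setting and any shrinkage of fold changes have no statement in the sources used here. Per the file headers, the authors deposited per gene a log2 fold change of KO over WT, a Wald statistic (a score) and p-values before and after FDR correction. The 8 columns of normalized values per sample match no sample label and were used in no step, so depth per library was not analysed here.

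The planned fit of sample values was therefore not run, and the authors' comparison was used. The quotient of log2 fold change and statistic served as SE, and 95% intervals use a normal distribution. Benjamini-Hochberg values recomputed over 17171 genes differed from the deposited ones by at most 9.58e-15. The adjustment was tested on simulated data. Genes and lists were chosen with earlier results of these data known. The text names the 9 genes and, from each list, called genes and the 3 with the smallest p-values. Other genes named, among them the neighbours, the cell type markers, Nr1d1, Slc26a4, Reln, Camk4, Thrsp, Nrgn, Mbp, Mag, Ttr, Slc5a3, Slc5a7 and Tshr, were chosen after their values were seen. A few genes that the lists hold are not reported here. Of the identifiers, 16955 matched GENCODE M21 (GRCm38), used for coordinates, exons and 50-base windows. Start windows came from RefSeq (GRCm38.p6). Scripts ran in Python 3.11.15 with scipy 1.17.1, pandas 2.3.3, numpy 2.4.6 and, for figures, matplotlib 3.10.9.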

Additional observations from a re-analysis of the deposited data

How the results depend on the processing

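Of the 9 genes, 2 were called over all genes, 0 when at least 1.5-fold was also asked for, 1 (Slc5a5) with Bonferroni, 2 with protein-coding genes only, and 3 (Iyd added) both at an adjusted p of 0.1 and with an SE of at most 0.25. Over all genes the 257 calls became 67 with the fold and 79 with Bonferroni, by construction of a stricter threshold, and 250 to 367 in the other 3 settings. Slc5a5, at 1.47-fold, lies just under the fold of 1.5. Hr was also lost with Bonferroni (adjusted p = 1). Dio2, Slco1c1, Crym, Thra, Thrb and Klf9 were called in none of these settings, and no direction can change in them, since they alter the threshold or the genes adjusted over and not the fold change. No paired analysis was possible because no library value could be tied to a replicate number. For the same reason the planned pseudocounts, filters, left-out replicates and edgeR and DESeq2 fits were not run. What depth limits is seen only in the SE, which for 3 of the 9 genes, Iyd, Dio2 and Slco1c1, exceeds the median of all genes.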
